A study of Mus musculus with 12 samples.

Results

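Glycolysis converts glucose to pyruvate in the cytosol, and lactate dehydrogenase turns pyruvate into lactate. The account here covers 10 mouse genes of this pathway, Hk1, Hk2, Pfkl, Aldoa, Tpi1, Pgk1, Eno1, Eno1b, Pkm and Ldha, taken by symbol from the 22013 entries of an all-genes RNA-seq table. All 10 symbols matched 1 entry each, and all 10 passed the filter on low counts that left 13928 genes for testing. Eno1b lay near the floor in wild type, at 0 to 61.35 estimated counts per library. The members were chosen by their measured levels in these same libraries, namely the genotype differences in estimated counts, and their knockout against wild-type values are therefore given as a description from which nothing is inferred.

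The libraries came from mouse aorta and are labelled as endothelial cells. All animals received an angiotensin II (Ang II) infusion and intraperitoneal glycine or saline. The 4 groups of 3 libraries were Glra2 global knockout with glycine (libraries 4 to 6), Glra2 global knockout with saline (1 to 3), wild type with glycine (4 to 6) and wild type with saline (1 to 3). The glycine dose is labelled 800 mg/kg per day, except for knockout glycine 5, which is labelled 80 mg/kg per day. Glra2, on chromosome X, is the gene of the glycine receptor's α2 chain. It had 0 counts in all 12 libraries, wild type included, so the genotype labels could not be checked on it. Age, sex and strain are not given in the labels, nor whether the 3 libraries of a group came from separate animals, and the p-values below measure only the spread between these libraries. Library totals were 14458854 to 24292383 estimated counts, of which mitochondrially encoded genes took 26.9 to 64.7%.

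The endothelial label was checked on 10 markers, among them Pecam1, Cdh5 and Nos3. None of them was at 0 throughout, and their summed level was 303 to 453 CPM in knockout glycine, 264 to 430 CPM in knockout saline, 346 to 478 CPM in wild-type glycine and 564 to 873 CPM in wild-type saline. CPM are counts scaled to a common library total, after TMM normalization. The sum of 10 macrophage markers was 9604 to 10953 CPM in knockout glycine, 15240 to 20847 CPM in knockout saline, 8956 to 9457 CPM in wild-type glycine and 4000 to 6078 CPM in wild-type saline. The sum of 7 fibroblast markers lay between 6226 and 19969 CPM. The libraries therefore held RNA of other cell types beside the labelled one, and in bulk libraries fewer cells of a type and less RNA in each of them cannot be told apart.

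Glucose is first phosphorylated by hexokinases (Hk1, Hk2), committed to the pathway by phosphofructokinase (the liver-type subunit Pfkl) and split by aldolase (Aldoa) into triose phosphates, which triosephosphate isomerase (Tpi1) interconverts. Phosphoglycerate kinase (Pgk1) and pyruvate kinase (Pkm) make the ATP of the pathway, with enolase (Eno1) between them, and Ldha restores NAD+ by reducing pyruvate. Endothelial cells and activated macrophages are both known for a strong reliance on glycolysis, and many of these genes are targets of hypoxia-inducible factors.

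Eno1 encodes α-enolase, which makes phosphoenolpyruvate, and Eno1b is a copy of it made by retrotransposition. The 2 genes lie on different chromosomes, Eno1 on 4 and Eno1b on 18. In the GENCODE vM21 models (assembly GRCm38) their coding sequences of 1305 bases differed at 8 bases, an identity of 99.39%, and the 434 residues of the encoded proteins were identical. The other enolases were much farther away, with 82.95% of residues shared between Eno1 and the neuronal enolase Eno2 and 83.64% between Eno1 and the muscle enolase Eno3. Of all stretches of 100 bases in the Eno1 coding sequence, 68.4% were found letter for letter in Eno1b, and 58.4% of all stretches of 150 bases, against 0 in Eno2 and 0 in Eno3. A read from such a stretch can be assigned to either gene. The deposited estimated counts carried the trace of this sharing: Eno1 and Eno1b each had a whole number in 1 of the 12 libraries, while their sum was whole in 12 of 12 (within 0.005 counts). The other 8 enzymes had whole counts throughout. Eno1 and Eno1b are therefore given singly and as a sum, and the split between them is uncertain.

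Eno1b separated the genotypes completely. Its estimated counts were 5520.1, 5729.95 and 5426.84 in knockout glycine 4 to 6 and 5815.1, 9347.49 and 11831.81 in knockout saline 1 to 3, against 5.58, 13.67 and 11.06 in wild-type glycine 4 to 6 and 23.51, 0 and 61.35 in wild-type saline 1 to 3. Every knockout library thus held at least 5426.84 counts of Eno1b, and no wild-type library held more than 61.35. Eno1b made up 60.97 to 65.17% of the summed enolase count in the knockout libraries (mean 63.7 ± 1.49%, SD, n = 6) and 0 to 1.39% in the wild-type libraries (mean 0.395 ± 0.514%, SD, n = 6). The share hardly moved among the knockout libraries, although their summed counts ran from 8721 to 18300.

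Between the genotypes, Eno1 counted alone did not follow Eno1b, although both ranked the knockout libraries in the same order of CPM. It stood at 148, 150.2 and 184 CPM in knockout glycine and 214, 276 and 254 CPM in knockout saline, against 299.7, 346 and 338 CPM in wild-type glycine and 304, 263 and 268 CPM in wild-type saline. The knockout glycine libraries lay below all others, and the knockout saline libraries overlapped the wild-type saline ones. The summed level was 403, 414 and 470.4 CPM in knockout glycine and 614, 775 and 719 CPM in knockout saline, against 300.03, 347 and 339 CPM in wild-type glycine and 306, 263 and 271 CPM in wild-type saline. Every knockout library lay above every wild-type library in this sum, with the widest gap under saline.

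**Figure D1:**
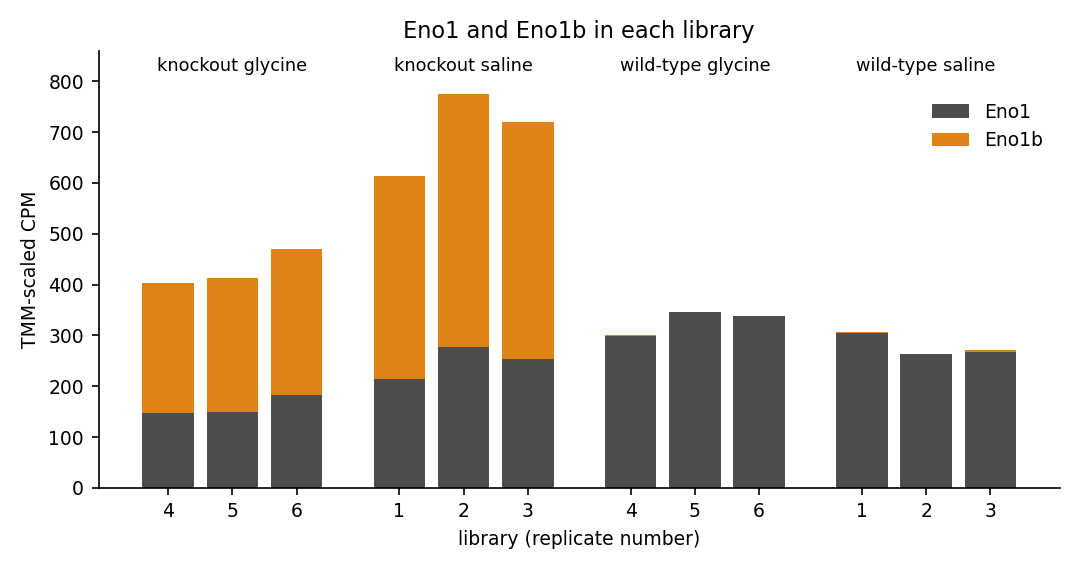
Stacked bars give the TMM-scaled CPM of Eno1 (grey) and Eno1b (orange) in each of the 12 libraries, by group and replicate number. Eno1b made up 60.97 to 65.17% of the summed count in the knockout libraries and at most 1.39% in the wild-type libraries, and the summed bars are tallest in knockout saline.

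The log2 fold change of knockout over wild type for Eno1b was 7.91 ± 0.58 under saline and 8.87 ± 0.63 under glycine (approximate SE, n = 3 each). From here on, the SE of a log2 fold change is its absolute value divided by the square root of the edgeR F statistic. With wild type near 0 the size is poorly fixed: the saline value ran from 7.45 to 9.05 over 12 fits that left out 1 library each, the highest lacking wild-type saline 3. On FPKM with library medians set equal, an alternative chosen after seeing the data, it was 6.96 under saline and 6.995 under glycine. For Eno1 alone the log2 fold change was -0.17 ± 0.15 under saline and -1.03 ± 0.15 under glycine, and for the sum it was 1.33 ± 0.14 under saline and 0.39 ± 0.14 under glycine, so the 2 ways of counting gave opposite signs. On the deposited FPKM values, which are scaled differently, the saline value of Eno1 alone was 0.08 and that of the sum 1.70.

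The enzymes other than enolase are taken in pathway order. The hexokinases showed no common pattern. Hk1, the widely expressed form bound to mitochondria, ranged from 13.4 to 21.0 CPM (median 15.6) over the 6 knockout libraries and from 10.8 to 24.0 CPM (median 19.1) over the 6 wild-type libraries. Hk2, the inducible form, ranged from 13.4 to 25.5 CPM (median 17.4) in knockout and from 10.3 to 26.8 CPM (median 14.3) in wild type. Both genotypes overlapped throughout, and the log2 fold changes were -0.19 ± 0.32 for Hk1 and 0.56 ± 0.36 for Hk2 under saline, and -0.12 ± 0.32 for Hk1 and -0.15 ± 0.36 for Hk2 under glycine. Without wild-type glycine 5 the Hk1 value under glycine was 0.27.

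Pfkl, which encodes the subunit of the committing enzyme that prevails in liver and is also found in leukocytes, lay higher in knockout. It stood at 66.9, 93.1 and 71.9 CPM in knockout glycine and 103, 105 and 92.9 CPM in knockout saline, against 46.6, 41.8 and 46.2 CPM in wild-type glycine and 34.1, 46.5 and 71.0 CPM in wild-type saline. Only wild-type saline 3 reached into the range of the knockout libraries. The log2 fold change was 0.99 ± 0.23 under saline and 0.78 ± 0.23 under glycine. Aldoa and Tpi1, the enzymes of the triose steps, differed less, with 0.25 ± 0.15 and 0.57 ± 0.19 under saline and 0.36 ± 0.15 and 0.23 ± 0.19 under glycine. Aldoa was at 275 to 391 CPM in knockout and 229 to 331 CPM in wild type, and Tpi1 at 70.9 to 98.9 CPM in knockout and 54.9 to 87.7 CPM in wild type.

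Pgk1, the first ATP-making enzyme, stood at 83.0, 82.8 and 92.5 CPM in knockout glycine and 93.2, 111 and 135 CPM in knockout saline, against 64.2, 56.6 and 65.1 CPM in wild-type glycine and 64.4, 47.4 and 75.5 CPM in wild-type saline. No wild-type library reached the lowest knockout library. Its log2 fold change was 0.86 ± 0.19 under saline and 0.47 ± 0.19 under glycine. Pkm, the second ATP-making enzyme and the one with the widest range of CPM among the non-enolase members, stood at 279, 272 and 297 CPM in knockout glycine and 317, 451 and 391 CPM in knockout saline, against 184, 258 and 267 CPM in wild-type glycine and 185, 208 and 169 CPM in wild-type saline. Here too the genotypes did not overlap, although wild-type glycine 5 and 6 came close to the knockout glycine libraries. The log2 fold change was 1.04 ± 0.17 under saline and 0.26 ± 0.17 under glycine. Ldha ranged from 195 to 268 CPM (median 229) in knockout and from 159 to 197 CPM (median 182) in wild type, with 0.44 ± 0.15 under saline and 0.22 ± 0.14 under glycine.

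**Figure D2:**
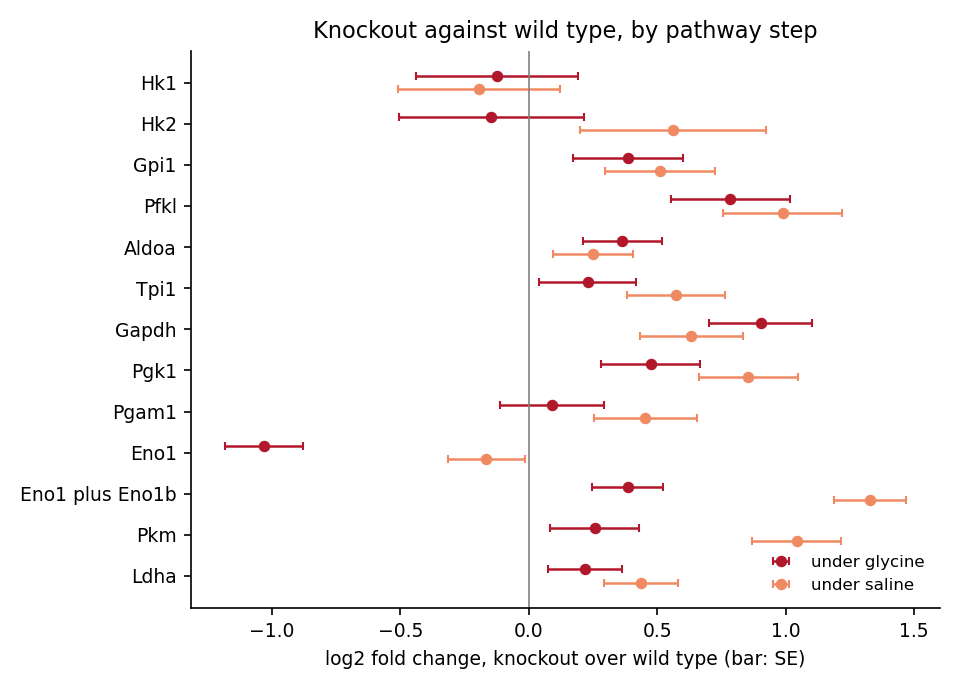
Points give the log2 fold change of knockout over wild type under glycine (dark) and under saline (light) with SE bars, for the members in pathway order and for Gpi1, Gapdh and Pgam1, which catalyse the remaining steps; Eno1b itself lies off the scale at 8.87 and 7.91. Most points lie to the right of 0, while Eno1 counted alone and Hk1 lie to the left under both treatments, and Hk2 under glycine.

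The threshold used throughout was a Benjamini-Hochberg adjusted p below 0.05 in the edgeR quasi-likelihood test over 13928 genes. For the members the counts past it between genotypes are treated as a record of the choice, not a test. Past it, 4 of 10 members were higher in knockout under saline (Eno1b, Pfkl, Pgk1 and Pkm), where 6.04% of all genes were, and 0 were lower, where 5.26% of all genes were. Under glycine 1 member was higher (Eno1b), beside 1.5% of all genes, and 1 was lower (Eno1), beside 1.06%, so that 2 of 10 passed in either direction beside 2.56% of all genes. Averaged over both treatments 5 were higher (Eno1b, Ldha, Pfkl, Pgk1 and Pkm), beside 6.46%, and 1 was lower (Eno1), beside 6.29%. On FPKM the averaged value of Eno1 alone was -0.42 and missed the threshold, against -0.60 ± 0.11 with counts. The median log2 fold change of the members was 0.57 under saline, 0.24 under glycine and 0.36 averaged, beside all-gene medians of -0.02, -0.01 and -0.00. In 3 members (Eno1b, Pkm and Pgk1) all 6 knockout libraries lay above all 6 wild-type libraries, which held for 2.89% of all genes, and in 0 members they all lay below, which held for 2.7%. Nothing is read from these counts. All comparisons here share libraries, so they are not independent of each other.

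Levels of different genes can be compared only per length, in the deposited FPKM, which are scaled for gene length and library total. In knockout saline the enolase sum came first at 371 ± 83.0 FPKM, ahead of Aldoa at 234 ± 44.3, Pkm at 189 ± 57.8 and Ldha at 149.8 ± 31.2 FPKM (SD, n = 3 each). In wild-type saline Aldoa came first at 166 ± 19.9 FPKM, followed by the enolase sum at 114 ± 28.1, Ldha at 94.7 ± 25.9 and Pkm at 65.3 ± 8.04 FPKM (SD, n = 3 each). Neighbours in that order, such as Pkm and Ldha in knockout saline, lay within each other's spread. Tpi1, Pgk1 and Pfkl followed in all 4 groups between 11.3 and 60.2 FPKM, and, with Eno1b counted within the sum, the hexokinases closed the order in all 4 groups, at means of 4.08 to 4.78 FPKM for Hk1 and 1.95 to 3.62 FPKM for Hk2.

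**Figure D3:**
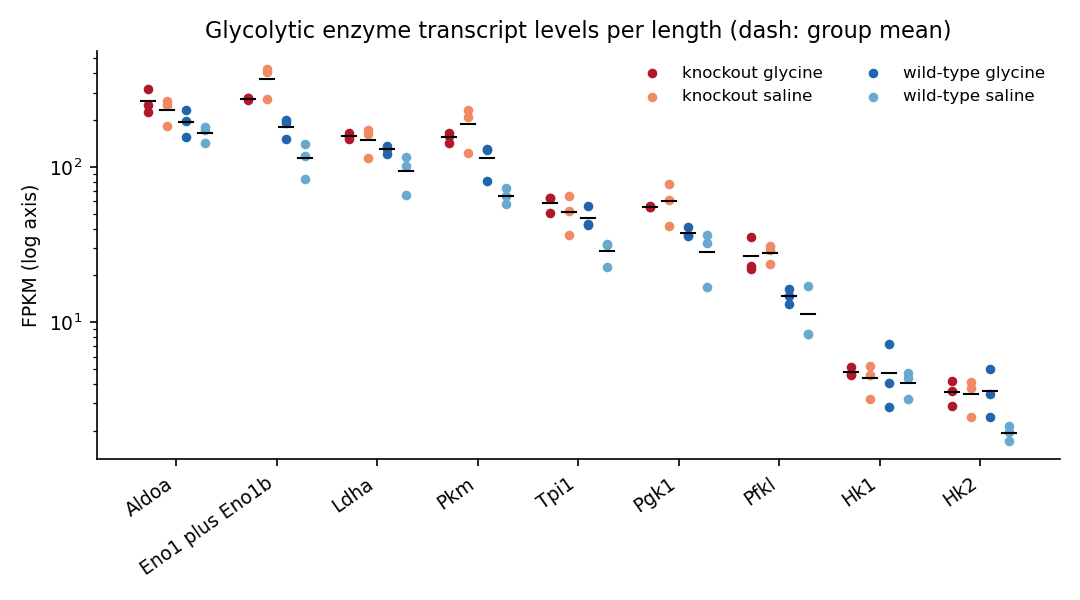
Deposited FPKM of the members on a log axis, 1 point per library with a dash at the group mean, in the order knockout glycine, knockout saline, wild-type glycine and wild-type saline. The enolase sum reaches 371 FPKM in knockout saline and 114 FPKM in wild-type saline, and the hexokinases lie below the other points drawn, where Eno1b enters only within the sum.

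The glycolytic genes are textbook targets of hypoxia-inducible factors, and 3 promoter windows of members are shown as examples, picked after the matches were seen because they hold the core letters of the factor's site. The windows run from 250 bases before to 50 after an annotated start (RefSeq, assembly GRCm38.p6); coordinates refer to that assembly, while the build behind the counts is not given in the sources used here. Capitals mark ACGTG or GCGTG, the core letters of the factor's site, on either strand (so that CACGT and CACGC are the same motifs read from the opposite strand). The windows printed are Pgk1 at chrX:106186850-106187149, the first Ldha window at chr7:46845554-46845853 and the second Pkm window at chr9:59656977-59657276, all on the plus strand.
Pgk1: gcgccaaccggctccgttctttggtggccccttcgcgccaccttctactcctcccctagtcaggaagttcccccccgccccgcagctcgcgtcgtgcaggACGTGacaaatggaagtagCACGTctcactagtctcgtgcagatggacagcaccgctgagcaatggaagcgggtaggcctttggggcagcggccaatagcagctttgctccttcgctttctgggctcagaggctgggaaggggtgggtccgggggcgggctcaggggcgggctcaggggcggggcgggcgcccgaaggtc
Ldha: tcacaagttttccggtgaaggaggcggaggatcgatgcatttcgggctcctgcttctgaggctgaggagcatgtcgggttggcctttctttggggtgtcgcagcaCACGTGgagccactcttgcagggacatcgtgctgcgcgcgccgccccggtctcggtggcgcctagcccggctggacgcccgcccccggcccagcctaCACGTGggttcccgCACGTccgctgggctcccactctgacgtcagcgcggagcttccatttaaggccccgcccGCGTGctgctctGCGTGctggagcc
Pkm: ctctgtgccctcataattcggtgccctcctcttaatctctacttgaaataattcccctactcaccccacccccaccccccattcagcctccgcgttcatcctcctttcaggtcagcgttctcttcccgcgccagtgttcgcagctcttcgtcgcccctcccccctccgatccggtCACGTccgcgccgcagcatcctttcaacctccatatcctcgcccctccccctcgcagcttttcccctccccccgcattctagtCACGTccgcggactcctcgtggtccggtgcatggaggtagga

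Of the 10 members 9 had at least 1 window, 16 windows in all, some of which overlap. The ACGTG or GCGTG core was found in 12 of the 16 windows and in 8 members, and in 43.8% of the 32851 promoter windows of all genes. ACGTG alone occurred in 19.6% of all windows and GCGTG alone in 32.4%. The Ldha window held 5 matches to ACGTG and 2 to GCGTG; 2 sites read CACGTG, which holds ACGTG on both strands and occurred in 7.15% of all windows. The Pgk1 and Pkm windows shown held 2 matches to ACGTG each, and the other Pkm window held 0 matches. A match describes letters only. With a core in 8 of the 9 members that had a window, its presence could not sort the members, and nothing is read from it. Pfkl had 1 match, Hk1 had 5 matches in its second window, and Tpi1 had 0 in its single window.

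Glycine against saline was tested in each genotype. These tests use the same saline and glycine libraries that entered the genotype differences. They are therefore not independent of the choice of members, and the directions and p-values of members below are no independent evidence. In knockout, all 10 members lay below 0 with TMM scaling, with a median log2 fold change of -0.33 beside an all-gene median of -0.01. None of the 10 passed singly, beside 1.13% of all genes (0.926% higher and 0.201% lower), while 2 of 10, Eno1 and Pkm, had an unadjusted p below 0.05 and 1 of 10, Eno1, passed with DESeq2. Read as one quantity, Eno1 plus Eno1b fell by 0.71 on the log2 scale (SE 0.14), to 429 ± 36.3 CPM with glycine against 703 ± 81.7 CPM with saline (SD, n = 3 each; adjusted p = 0.0216, edgeR). All 3 glycine libraries, at 403 to 470.4 CPM, lay below all 3 saline libraries, at 614 to 775 CPM. The call was lost without knockout glycine 4 (adjusted p = 0.0838), knockout glycine 5 (0.118), knockout saline 2 (0.122) or knockout saline 3 (0.0959), and on FPKM the change was -0.40 (adjusted p = 0.359, limma-trend). Eno1 alone had -0.63 ± 0.15 (adjusted p = 0.0595, edgeR; 0.0027 with DESeq2, and 0.045 in edgeR without wild-type glycine 4), and Pkm had -0.45 ± 0.17 (adjusted p = 0.309, edgeR).

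The direction of the whole set depended on scaling. On FPKM with a pseudocount of 1, where the median of all genes moved to 0.19, 5 of 10 members lay above 0 and 5 below, and 9 of 10 lay below the all-gene median. With the FPKM medians of the libraries set equal, a setting chosen after seeing the data, 10 of 10 lay below 0 again. With counts, 1 of 10 members lay above 0 without knockout saline 3 and 1 of 10 without knockout glycine 5, the library labelled with the lower dose.

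In wild type the glycine comparison gave no common direction. With TMM scaling 5 members lay above 0 and 5 below (median -0.00), and 0 of 10 passed, beside 1.39% of all genes; 0 passed with DESeq2, and the 1 with an unadjusted p below 0.05 was Eno1b, from which nothing is read at 0 to 61.35 counts. Of all 13928 genes 1669 had an unadjusted p below 0.05 here, and 1540 in knockout. The enolase sum averaged 328 ± 25.0 CPM with glycine and 280 ± 22.7 CPM with saline (SD, n = 3 each), a log2 fold change of 0.23 ± 0.14 (adjusted p = 0.58, edgeR). Pkm averaged 237 ± 45.5 CPM with glycine and 188 ± 19.5 CPM with saline, a log2 fold change of 0.34 ± 0.17 (adjusted p = 0.487, edgeR). On FPKM, where the median of all genes stood at 0.31, 9 of 10 members lay above 0 and 7 above that median.

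The difference between the glycine effects of the 2 genotypes, knockout minus wild type, equals the difference between the genotype effects under the 2 treatments. It is therefore built from the values treated as having chosen the members, and is given for them as a description. It was -0.94 ± 0.20 for Eno1 plus Eno1b, -0.87 ± 0.21 for Eno1 alone and -0.79 ± 0.24 for Pkm on the log2 scale (SE). For the sum it ran from -1.06 to -0.87 over 12 fits that left out 1 library each. No member passed singly, beside 1.12% of all genes (0.273% higher and 0.847% lower). At an unadjusted p below 0.05 there were 2 members, and by DESeq2 1 of 10 passed, Eno1.

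**Figure D4:**
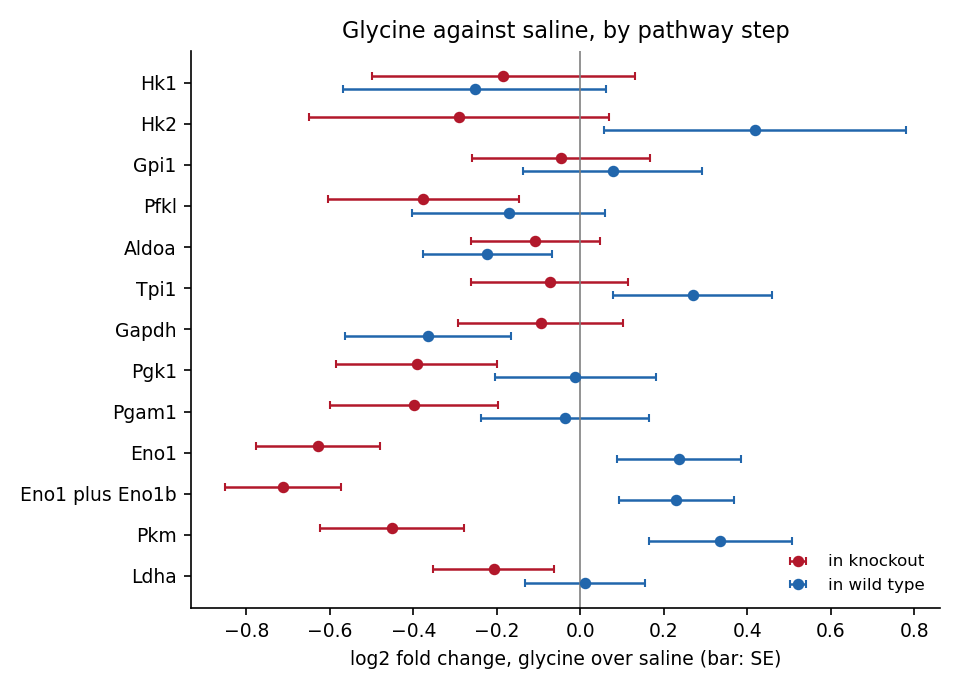
Points give the log2 fold change of glycine over saline in knockout (red) and in wild type (blue) with SE bars, in pathway order. The enolase sum stands at -0.71 in knockout and 0.23 in wild type, and the members lie left of 0 in knockout.

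Steps without a member were covered by Gpi1 (glucose-6-phosphate isomerase), Gapdh (the NADH-making dehydrogenase) and Pgam1 (phosphoglycerate mutase). Like the members, the gene lists used from here on were chosen with earlier results of these data known. Their p-values and counts are therefore no independent evidence. Gapdh, often used as a reference gene, was higher in knockout. It stood at 226, 191 and 253 CPM in knockout glycine and 227, 269 and 219 CPM in knockout saline, against 116, 131 and 111 CPM in wild-type glycine and 144, 205 and 113 CPM in wild-type saline. Only wild-type saline 2 reached the knockout range. Averaged over both treatments the log2 fold change was 0.77 ± 0.14 (adjusted p = 0.0019, edgeR), and this call held in every alternative tried. Gapdh also has processed copies in the genome, and its estimated counts were fractional in 11 of 12 libraries. Gpi1 (0.45 ± 0.15, adjusted p = 0.0678) and Pgam1 (0.27 ± 0.14, adjusted p = 0.265) did not pass in the same edgeR comparison. Gpi1 did pass with DESeq2 (0.0393), on FPKM (0.0219) and without wild-type saline 2 (0.0451) or wild-type glycine 4 (0.0212).

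Among 21 other glycolytic isozymes, 13 were abundant enough to test. Hk3, a hexokinase of myeloid cells, was higher in knockout under saline by 3.49 ± 0.55 on the log2 scale (adjusted p = 0.000686, edgeR). It stood at 14.7, 15.9 and 8.98 CPM in knockout glycine and 24.7, 21.6 and 18.4 CPM in knockout saline, against 4.68, 14.6 and 11.2 CPM in wild-type glycine and 2.85, 2.23 and 0.677 CPM in wild-type saline. The wild-type saline libraries stood apart at the low end. Within wild type Hk3 was higher with glycine by 2.41 ± 0.53 (adjusted p = 0.0376, edgeR), a call near the threshold. It held in 3 of 12 fits that left out 1 library. It was lost without wild-type saline 1, 2 or 3 or wild-type glycine 5 or 6 (adjusted p up to 0.141, edgeR). The call was also lost without knockout saline 2 or 3 or knockout glycine 4 or 5. Those libraries are not in this comparison, and the log2 fold change without each of them stayed at 2.41. With only the 2 compared groups (0.268, edgeR) and on FPKM with library medians set equal (0.0655, limma-trend) the call was lost as well. In knockout against wild type under saline Hk3 was the 1 isozyme of 13 that passed as higher, beside 6.04% of all genes, and 0 of 13 were lower, beside 5.26%, so the list as a whole was near the share of all genes. Under glycine Gapdh (0.90 ± 0.20, adjusted p = 0.0256) and Ldhb (1.14 ± 0.26, adjusted p = 0.029) passed as higher in knockout by the edgeR test, 2 of 13 beside 1.5% of all genes. The Gapdh call under glycine was lost without any 1 of wild-type glycine 4, 5 or 6 or knockout glycine 4 or 6 (adjusted p up to 0.119). The Ldhb call was lost without wild-type glycine 5 or 6 or knockout glycine 4, 5 or 6 (up to 0.148), and with the replicate block (0.0518).

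Ldhb, the lactate dehydrogenase subunit typical of heart, stood at 202, 141 and 147 CPM in knockout glycine, 127, 73.6 and 77.0 CPM in knockout saline, 86.6, 79.7 and 56.9 CPM in wild-type glycine and 97.9, 150.2 and 93.1 CPM in wild-type saline. Eno3, the muscle enolase, stood at 75.7, 67.4 and 64.6 CPM in knockout glycine, 40.9, 34.8 and 24.9 CPM in knockout saline, 51.1, 27.96 and 22.3 CPM in wild-type glycine and 28.5, 55.7 and 20.6 CPM in wild-type saline. Both had their highest group mean in knockout glycine, although wild-type saline 2 reached above 2 of those libraries for Ldhb. The summed level of 9 skeletal and cardiac muscle markers was 1853 to 2562 CPM in knockout glycine, 527 to 881 CPM in knockout saline, 420 to 1131 CPM in wild-type glycine and 459 to 1170 CPM in wild-type saline, and its part in these values was not tested.

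Shares of the isozymes at a step were compared on FPKM. Eno1 plus Eno1b gave 83.0 ± 2.2% of all enolase FPKM in knockout glycine, 94.2 ± 1.9% in knockout saline, 87.4 ± 5.6% in wild-type glycine and 85.3 ± 7.1% in wild-type saline (SD, n = 3 each). Ldha gave 50.6 ± 6.5% of Ldha plus Ldhb in knockout glycine, 68.1 ± 9.1% in knockout saline, 66.4 ± 4.1% in wild-type glycine and 56.2 ± 8.9% in wild-type saline. Hk1 gave 36.4 ± 5.7% of the hexokinases in knockout glycine, 30.04 ± 6.1% in knockout saline, 37.8 ± 7.3% in wild-type glycine and 62.0 ± 6.8% in wild-type saline. Pfkl gave 47.3 ± 10.4% of the phosphofructokinases in knockout glycine, 53.0 ± 2.2% in knockout saline, 40.5 ± 9.0% in wild-type glycine and 38.4 ± 7.8% in wild-type saline. Aldoa gave at least 97.7% of the aldolases in each library. In every family named here, the mean share differed between glycine and saline with opposite signs in the 2 genotypes. An exact permutation test of the glycine difference averaged over both genotypes (two-sided, 400 arrangements, 10 tests adjusted together) gave adjusted p of 0.575 to 0.844, but opposite changes cancel in that average, so it bears on neither genotype alone. Within a genotype, 3 libraries against 3 cannot give an exact p below 0.1.

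Transport of glucose and lactate stood out through the glucose importer Slc2a1 (GLUT1). It was at 27.4, 13.4 and 27.5 CPM in knockout glycine and 26.6, 32.6 and 26.6 CPM in knockout saline, against 3.46, 8.85 and 9.13 CPM in wild-type glycine and 9.96, 13.9 and 12.2 CPM in wild-type saline. All knockout libraries but knockout glycine 5 lay above every wild-type library. Averaged over both treatments the log2 fold change was 1.46 ± 0.27 (adjusted p = 0.00212, edgeR), a call that held in every alternative tried. In the same comparison Slc16a3, the lactate exporter MCT4, was higher by 2.16 ± 0.50 (adjusted p = 0.00929), but without knockout saline 2, its highest library at 30.9 CPM, the adjusted p was 0.0569. In edgeR these were 2 of 10 transport genes higher, beside 6.46% of all genes, and 0 of 10 were lower, beside 6.29%; DESeq2 gave 3 higher and 1 lower, Bsg. Slc16a7, the monocarboxylate carrier MCT2, was higher in knockout under saline by 1.87 ± 0.45 (adjusted p = 0.0126, edgeR), and without knockout saline 3 the adjusted p was 0.0761. Under glycine its sign was the other one, with 11.2 ± 4.67 CPM in knockout glycine and 23.2 ± 6.89 CPM in wild-type glycine (-1.05 ± 0.43, adjusted p = 0.285, edgeR). The glycine by genotype interaction of Slc16a7 was -2.92 ± 0.62 (adjusted p = 0.0367, edgeR). That call was lost with the replicate block (0.0706) and without any 1 of wild-type saline 1 or 3, wild-type glycine 5 or 6, knockout saline 2 or 3, or knockout glycine 4 or 6 (up to 0.114).

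The oxidative and non-oxidative pentose phosphate pathway, which branches off glucose-6-phosphate, had 4 of 8 genes higher in knockout under saline and 0 lower, beside 6.04% of all genes higher. These were transketolase Tkt (1.005 ± 0.22, adjusted p = 0.00754), the first enzyme G6pdx (1.23 ± 0.31, 0.0172), transaldolase Taldo1 (0.77 ± 0.20, 0.0208) and phosphogluconate dehydrogenase Pgd (1.03 ± 0.29, 0.0345), all from edgeR. The same 4 passed with DESeq2. Tkt kept its call in every alternative tried. G6pdx lost it without wild-type saline 1, wild-type saline 3 or knockout saline 2 (up to 0.0713). Taldo1 lost it without wild-type saline 2 or 3 or knockout saline 2 or 3 (up to 0.0932), and with the replicate block (0.0711). Pgd lost it without wild-type saline 1 or 3 or knockout saline 1 or 2 (up to 0.131). It also did so with only the 2 compared groups (0.0566) and with the replicate block (0.0544). Under glycine 0 of 8 passed in edgeR and in DESeq2, and 1 had an unadjusted p below 0.05. The difference between the 2 treatments was tested as the interaction, in which 0 of 8 passed in either tool and 2 had an unadjusted p below 0.05. This list too was chosen with earlier results of these data known, so its counts are no independent evidence.

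Hypoxia-inducible factors and their other targets did not share a direction. Of 23 genes, 1 was higher in knockout under saline, beside 6.04% of all genes, and 3 were lower, beside 5.26%. The higher one was Hif1a (1.19 ± 0.28, adjusted p = 0.011, edgeR), which encodes the oxygen-regulated subunit. That call was lost without wild-type saline 1 (0.0563). The 3 that were lower were Adm, the gene of the vasodilator adrenomedullin (-1.30 ± 0.26, adjusted p = 0.0039), the collagen prolyl hydroxylase P4ha2 (-0.84 ± 0.20, 0.013) and the mitochondrial protein gene Higd1a (-0.76 ± 0.20, 0.0205), from the same edgeR test. By DESeq2 3 of 23 were higher and 4 lower in that comparison. On FPKM, where all genes shifted up by a median of 0.15, the 3 lower genes missed the threshold, with -0.96 (0.0558) for Adm, -0.58 (0.141) for P4ha2 and -0.36 (0.329) for Higd1a. P4ha2 also missed it without wild-type saline 2 (0.0509) or knockout saline 2 (0.0766), and with only the 2 compared groups (0.0521). Higd1a missed it without wild-type saline 2 or 3 or knockout saline 1 or 3 (up to 0.0919), and with FPKM medians set equal (0.0944, limma-trend). Averaged over both treatments P4ha2 was lower in knockout by every setting tried (-0.97 ± 0.14, adjusted p = 0.000311, edgeR).

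Regulators of flux added Pfkfb3, which makes the activator of phosphofructokinase. It averaged 63.2 ± 8.69 CPM in knockout saline and 28.7 ± 15.1 CPM in wild-type saline (SD, n = 3 each). The log2 fold change was 1.14 ± 0.31 (adjusted p = 0.0258, edgeR). Pfkfb3 missed the threshold without wild-type saline 1 or 3 or knockout saline 2 or 3 (up to 0.0989), and with only the 2 compared groups (0.0578). It was 1 of 11 tested genes of that list to pass as higher, close to the 6.04% of all genes, and 0 were lower, beside 5.26%. Of 14 genes of pyruvate use in mitochondria (its carrier, the pyruvate dehydrogenase complex with its kinases and phosphatases, and pyruvate carboxylase), 0 were higher and 1 was lower in knockout under saline, beside 6.04 and 5.26% of all genes. It was Pdhb of that complex (-0.56 ± 0.16, adjusted p = 0.0299), which lost its call on FPKM (-0.31, 0.338) and without wild-type saline 1, 2 or 3 or knockout saline 2 or 3 (up to 0.152). Its call was also lost with FPKM medians set equal (0.0516, limma-trend), with only the 2 compared groups (0.0754, edgeR) and with the replicate block (0.0883, edgeR).

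Macrophage markers moved with the same comparisons. All 10 of 10 passed as higher in knockout under saline, beside 6.04% of all genes, and 0 of 10 under glycine, beside 2.56% in either direction. With glycine 7 of 10 passed as higher in wild type, beside 0.991%, and 1 of 10 as lower in knockout, beside 0.201%. In the interaction 7 of 10 were lower, beside 0.847%. Of 7 neutrophil markers 4 were higher in knockout under saline, beside the same 6.04%. Their summed levels were 458 to 598 CPM in knockout saline and 89.6 to 258 CPM in wild-type saline. Of 10 endothelial markers 3 were lower, and of 7 fibroblast markers 7 were lower, in the same comparison, beside 5.26% of all genes. There, 3 of 7 smooth muscle, 2 of 5 tested adipocyte and 1 of 9 skeletal and cardiac muscle markers were lower as well. Of B cell and of erythroid markers 2 of 6 were higher, and 0 of 8 T cell and 0 of 6 proliferation markers passed. The order of the groups by macrophage sum (knockout saline, knockout glycine, wild-type glycine, wild-type saline) was also the order of the group means of Pkm and of the enolase sum. The part of these cell types in the enzyme levels was not tested.

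**Figure D5:**
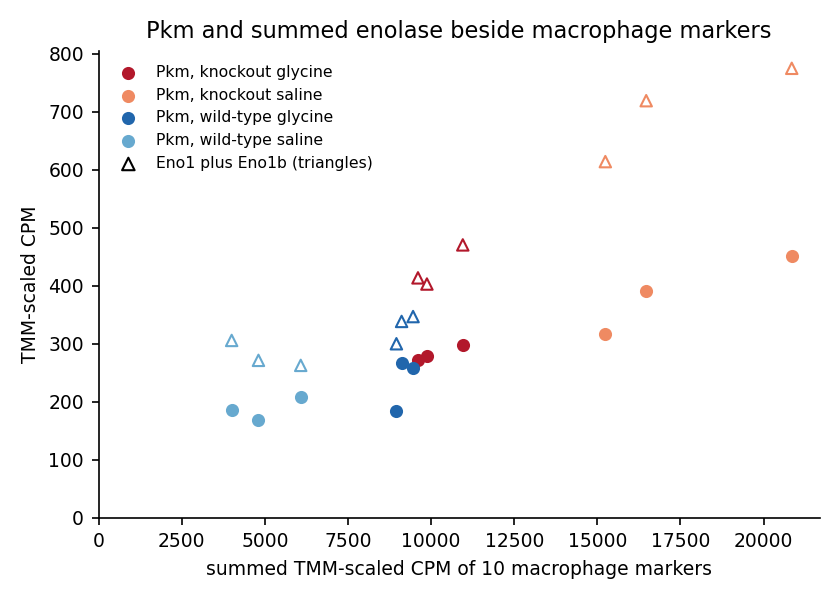
TMM-scaled CPM of Pkm (filled circles) and of Eno1 plus Eno1b (open triangles) against the summed CPM of 10 macrophage markers, 1 point of each kind per library. Libraries with 15240 to 20847 CPM of macrophage markers are those of knockout saline, and they hold the highest Pkm and enolase values.

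The genes whose log2 CPM followed the members most closely over the 12 libraries were sought among 7145 genes of at least 10 CPM on average; these correlations share libraries and group differences and are given without a p. Pkm was most like Psap (Pearson r = 0.98, Spearman 0.95), a lysosomal saposin precursor, then Itgb2 (0.97) and Itgam (0.96), the 2 chains of a leukocyte integrin, then Kdm7a (0.96) and Cd300lb (0.96). The enolase sum was most like Arpc1b (0.97), Fxyd5 (0.97), Cfl1 (0.97), Arg1 (0.96) and Plin2 (0.95); Arpc1b and Cfl1 encode regulators of actin filaments. Eno1b was most like Cap1 (0.97), Ncf4 (0.97), Calml4 (0.94), Irf9 (0.94) and Il1r2 (0.94). Cap1 averaged 98.3 CPM in knockout glycine and 117 CPM in knockout saline, against 5.66 CPM in wild-type glycine and 7.91 CPM in wild-type saline, which resembles Eno1b in separating the genotypes. Eno1 alone was most like Sec24d (0.91), Crot (0.91), Mob3a (0.90), Oaf (0.88) and Naa80 (0.87), and shared none of its 5 closest genes with Eno1b.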

How the data were processed

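Estimated counts (RSEM expected counts) and FPKM for 22013 genes in 12 libraries were deposited by the authors. RSEM, Bowtie2 2.2.8, StringTie 1.3.1 and HISAT2 2.1.0 are named in the submitters' processing notes. The genome build behind the counts is not given in the sources used here. Of the deposited estimated count values, over all genes and libraries, 10.4% were not whole, and all were rounded for testing. No symbol was given for 112 entries, with up to 0.0124% of the counts in a library. Library totals of 14458854 to 24292383 bound the counting precision.

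Genes were filtered with filterByExpr and scaled by TMM. They were tested in edgeR 4.0.16 (R 4.3.3) with robust quasi-likelihood fits of 1 model with 4 groups. There were 6 contrasts, and Benjamini-Hochberg adjustment ran over the 13928 genes. Eno1 plus Eno1b was tested in a second fit with the 2 rows summed. Log2 fold changes carry edgeR's default prior count. Their SE is approximate, taken as the absolute log2 fold change divided by the square root of the quasi-likelihood F statistic. Alternatives were DESeq2 1.42.0, its size factors, other filters, limma 3.58.1 on log2(FPKM + 1) or log2(FPKM + 0.1), and refits without a library, without mitochondrial genes, with 2 groups only or with the replicate block. Scripts were tested on simulated data. Named genes were the members, Gpi1, Gapdh, Pgam1, Glra2, up to 6 genes with the smallest adjusted p per list and comparison, and the 5 genes most correlated with Eno1, Eno1b, their sum and Pkm. Of the list genes examples are printed. The members and lists were chosen with earlier results of these data known. Sequences came from GENCODE vM21 and RefSeq GRCm38.p6; Eno1b had no promoter window there.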

Additional observations from a re-analysis of the deposited data

Results flagged for a closer look

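The fitted glycine effect on Eno1 plus Eno1b had opposite signs in the genotypes, -0.71 in knockout and 0.23 in wild type. The interaction, knockout minus wild type, was -0.94 on the log2 scale (SE 0.20, adjusted p = 0.0321, edgeR), and was picked out because that term passed. It is built from the genotype differences treated as having chosen the members, so the p is no independent evidence. The call was lost in 7 of 12 fits without 1 library: without knockout glycine 4 or 5, knockout saline 2 or 3, wild-type glycine 5 or 6, or wild-type saline 3 (adjusted p up to 0.0959). It was also lost on FPKM (0.0751 to 0.151) and with the replicate block (0.118). Of 10 macrophage markers 7 were lower in the same interaction, beside 0.847% of all genes, and their part in it was not tested.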

How the results depend on the processing

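Leaving out 1 library at a time, the enolase sum changed with glycine in knockout by -0.79 to -0.64 and in the interaction by -1.06 to -0.87, so no direction changed. On FPKM (pseudocount 1, 0.1, or 1 without a filter) the knockout glycine change was -0.40 in each (adjusted p = 0.359, 0.381 and 0.431, limma-trend) and the interaction was -1.09 in each (0.0751, 0.0921 and 0.151). The cause was not tested. The sum in knockout over wild type was 1.70, 1.71 and 1.70 under saline in those 3 FPKM settings and 1.49 with library medians set equal. Under glycine it was 0.61, 0.61 and 0.61, and 0.53 with medians equal. Averaged it was 1.15, 1.16 and 1.15, and 1.01 with medians equal.

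With the replicate block the interaction of the sum was -0.94 with an adjusted p of 0.118 (edgeR), and genes called numbered 47 against 156 in the interaction and 219 against 357 for knockout over wild type under glycine. Same-numbered libraries correlated at -0.03 to 0.02 in their deviations. Only knockout saline 2 and wild-type saline 2 correlated best with their own number (0.0194).

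Genes called in the glycine comparison in wild type numbered 193, against 529 with DESeq2, 967, 957 and 813 in the FPKM settings, 363 with medians equal, 31 with only 2 groups and 80 to 259 without 1 library. Of the 967 FPKM calls 918 were higher with glycine, against 138 of 193. In knockout they numbered 157, against 501 with DESeq2, 652, 553 and 521 on FPKM, 395 with medians equal, 336 with only 2 groups and 57 to 247 without 1 library. Of the 652 FPKM calls 623 were higher with glycine, against 129 of 157. For knockout over wild type under glycine they numbered 357, against 796 with DESeq2, 561 on FPKM with pseudocount 1, 694 with medians equal and 139 to 412 without 1 library. For the interaction they numbered 156, against 509 with DESeq2, 251 on FPKM with pseudocount 1, 313 with medians equal and 60 to 338 without 1 library. Under saline the calls numbered 1573, against 1016 to 1834 without 1 library, the lowest without knockout saline 2.

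The Eno1b share in knockout was 66.7% by FPKM in place of 63.7% by counts. The glycine difference in the Pfkl share, -1.77 percentage points, ranged from -4.06 to 1.15 without 1 library; it was 1.15 without knockout glycine 4 and 0.446 without wild-type glycine 5. Of 1757 further values of single genes under an alternative, 180 lost a call, 22 gained one, and 19, called in neither fit, had the other sign.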
